A study of Mus musculus with 18 samples.

Results

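Exocytosis machinery genes encode the proteins that tether, dock, prime and fuse secretory vesicles, and their transcripts were measured here in isolated mouse pancreatic islets. Members were all genes with an array cluster of their own whose symbol belongs to the synaptotagmin (Syt), synaptotagmin-like (Sytl), syntaxin (Stx), syntaxin-binding (Stxbp), Vamp, Snap, Rab3, Rab27, Rims, Unc13 or complexin (Cplx) families, with the cluster of highest mean signal taken where a gene had several. This name rule, which used no measured difference, gave 73 members of 22180 genes, and 69 of them were among the 15526 genes bright enough to test. The 4 dim members were Cplx4, Stx19, Syt10 and Unc13c. The symbol rule also took in Snap91, a clathrin adaptor that is not a SNARE, and Stxbp3-ps, a pseudogene that shares sequence with Stxbp3 and whose signal is therefore uncertain.

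The islets came from obese C57BL/KsJ db/db mice, which lack a working leptin receptor and which the series describes as prone to diabetes, from obese C57BL/6J ob/ob mice, which lack leptin and are described as resistant to it, and from lean control mice of each strain. Each of the 8 groups (lean KsJ, db/db, lean 6J and ob/ob islets at 6 and at 16 weeks) had 2 arrays in a table of 16. A separate table held 1 further lean KsJ array and 1 further db/db array at 16 weeks, called the pair below. Whether the 2 arrays of each group were made from different mice is not stated. The sex-linked genes Xist and Uty, given at the end, differed between the 2 arrays of lean 6J islets at 6 weeks and of lean KsJ islets at both ages. Those arrays were thus not from the same mouse. In the other groups the spread between arrays may be technical, and the p-values measure only the spread between these arrays. Strain and obesity gene go together, since db/db was studied on KsJ alone and ob/ob on 6J alone.

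In beta cells, insulin granules fuse with the plasma membrane when a vesicle SNARE (Vamp2) pairs with the plasma membrane SNAREs Stx1a and Snap25. Synaptotagmins sense calcium for this step, Unc13 and Rims proteins prime the granules, and complexins clamp or promote fusion. Rab3 and Rab27 GTPases bring granules to the membrane through effectors such as granuphilin (Sytl4), and tomosyns (Stxbp5 and Stxbp5l) hold syntaxin and Snap25 in complexes that inhibit fusion.

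Signals are on the log2 scale and serve to compare arrays for 1 gene, not genes with each other. A gene is called when the adjusted p from limma, over the 15526 genes, is below 0.05, and errors are standard errors (SE) of the fit over all 16 arrays. Islet identity was checked first. Ins2 lay between 11.60 and 12.20 on all 18 arrays, and Gcg between 13.09 and 13.48. The mean of 13 acinar genes, of digestive enzymes of the exocrine pancreas (9 of the 13 had a cluster of their own), was 11.87 on replicate 2 of the lean KsJ 16-week group and 9.04 on its replicate 1, and ran from 7.11 to 10.27 on the other 14 arrays. The pair's lean array also stood high, at 11.61 against 10.38 on its db/db array. The mean of 9 enterocyte genes, of the intestinal lining, was 10.59 on lean 6J 6-week replicate 2 and 6.75 and 9.12 on the db/db 16-week arrays, against 4.29 to 6.17 on the other 13, and in the pair 4.51 on the lean and 9.31 on the db/db array. The mean of 7 beta cell genes was 10.87 and 11.04 on the db/db 16-week arrays, 11.42 and 10.96 on the lean KsJ 16-week arrays and 11.21 to 11.71 on the other 12. Genes of other islet cells also separated the 16-week KsJ groups. The mean of 4 stellate cell genes was 7.58 and 8.41 on the db/db arrays against 6.02 and 5.93 on the lean arrays, that of 6 macrophage genes 6.86 and 6.29 against 5.58 and 4.91, and that of 4 endothelial genes 8.35 and 8.80 against 8.11 and 7.38. Their part in the member differences was not tested. In whole islets, fewer cells of a type and less RNA per cell cannot be told apart.

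The members differed most between the arrays of a group in lean KsJ islets at 16 weeks. On lean KsJ 16-week replicate 2, the acinar-rich array, 45 of 69 members stood below replicate 1, and the median absolute gap between the replicates was 0.63, against 0.49 over all genes. In the 7 other groups that gap was 0.11 to 0.31 over the members. It was 0.31 on the 6-week ob/ob arrays, against 0.27 over all genes, with 38 members higher and 31 lower on replicate 2. Syt1 read 5.31 and 7.32 there, Stxbp5l 4.54 and 6.49, and Sytl4 8.12 and 9.31. In the lean KsJ 16-week group the widest gaps were in Syt5, at 8.57 and 6.23, and Syt15, at 5.32 and 7.58. Rab27b (4.62 and 6.24) and Vamp8 (7.22 and 8.21) were also higher on the acinar-rich array. The main values of the comparisons that use this array are given below with and without it. Without it the lean group is 1 array, which also differs in sex from the 16-week db/db arrays, as given at the end. The heat map of the members by array shows these gaps.

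**Figure D1:**
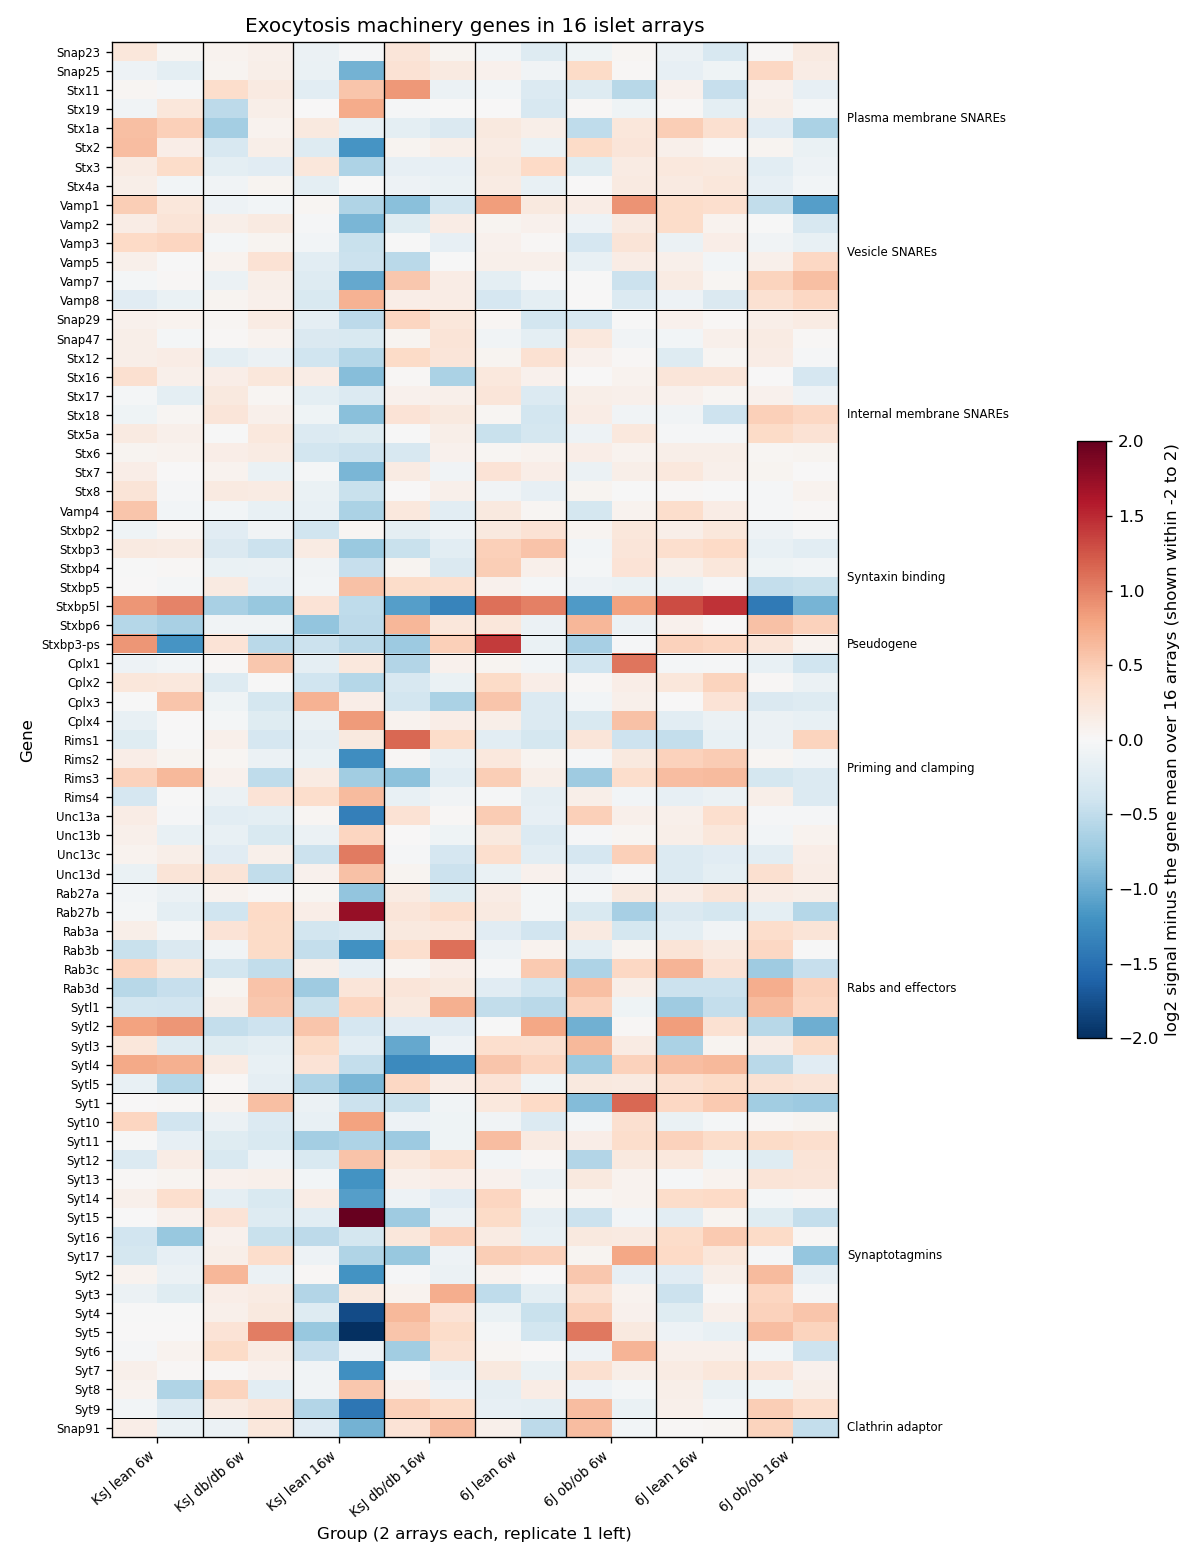
Heat map of the 73 members (rows, grouped by role) on 16 arrays (columns, 2 for each of 8 groups), coloured by the log2 signal minus the gene's mean over the 16 arrays, with colours limited to the range from -2 to 2. The second lean KsJ 16-week column stands apart in most rows, with Syt5 at 6.23 against 8.57 on the first, and the Stxbp5l row is low in the db/db and ob/ob columns.

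In the mean over both obese models and both ages, the members changed in both directions. Stxbp5l, Sytl2, Sytl4 and Stx1a were called lower, and Syt4, Syt5, Syt9, Rab3a, Rab3d, Sytl1, Stxbp6, Stx5a and Stx18 higher. The mean of the 4 obese-minus-lean differences was used for this, a contrast added after the values were seen. It called 13 of the 69 members, 9 higher and 4 lower, while 10.9% of all genes tested were called, 7.15% higher and 3.71% lower. Without the acinar-rich array it called 23 members, 12 higher and 11 lower, and 20.4% of all genes. The members' median was 0.05 and that of all genes 0.02. By role, the contrast called 5 of 11 Rabs and effectors (3 higher, 2 lower), 3 of 16 synaptotagmins (all higher), 2 of 6 syntaxin-binding genes (1 each way), 2 of 11 SNAREs of internal membranes (both higher) and 1 of 7 plasma membrane SNAREs (lower). It called none of the 10 tested priming and complexin genes, of which 1 was higher and 2 lower at an unadjusted p below 0.05 (16.2% and 10.8% of all genes), and none of the 6 vesicle SNAREs, with 1 each way. The plot of the called members shows the 4 differences behind each mean.

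**Figure D2:**
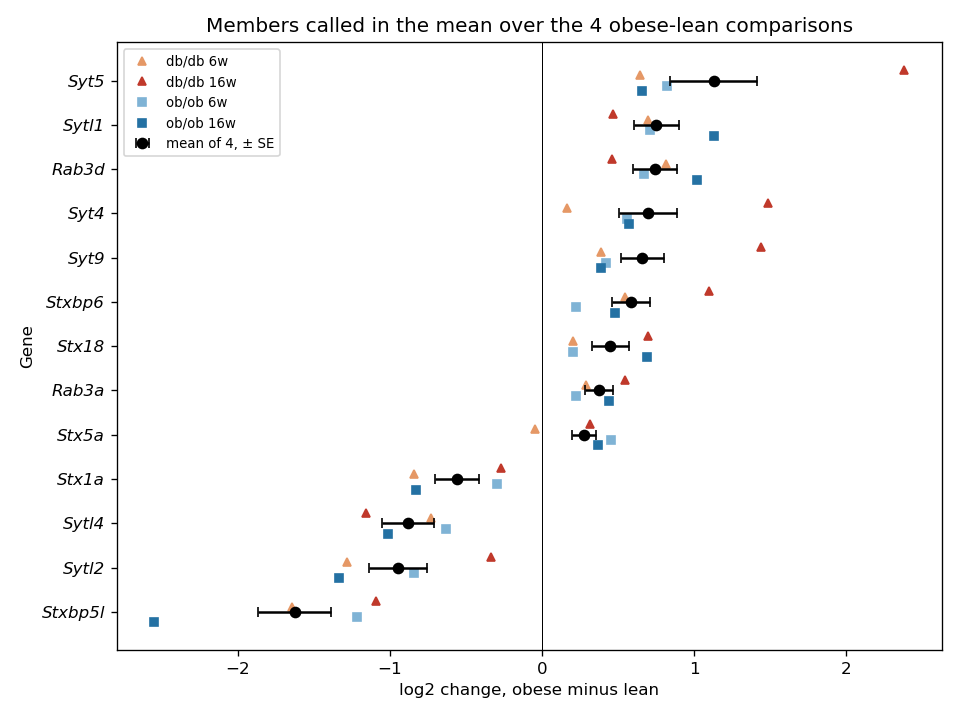
Log2 change of obese against lean islets (horizontal) for the 13 members called in the mean over 4 comparisons (vertical). Black points are the mean of the 4 with its SE, triangles the db/db and squares the ob/ob comparisons. Stxbp5l lies lowest at -1.62 and Syt5 highest at 1.13, and only the difference of Stx5a in db/db islets at 6 weeks has the opposite sign to its mean.

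Stxbp5l (tomosyn-2), an inhibitor of SNARE assembly and of insulin secretion, had the most negative mean change of the members in obese islets. In lean KsJ islets its signal was 6.57 and 6.67 at 6 weeks and 5.95 and 5.18 at 16 weeks. In db/db islets it was 5.04 and 4.92 at 6 weeks and 4.58 and 4.36 at 16 weeks, so that all 4 db/db arrays lay below all 4 lean KsJ arrays. In lean 6J islets it was 6.78 and 6.68 at 6 weeks and 6.98 and 7.13 at 16 weeks. In ob/ob islets it was 4.54 and 6.49 at 6 weeks and 4.27 and 4.75 at 16 weeks. The first 6-week ob/ob array was thus near the 16-week level and the second near the lean level. The mean of 3 delta cell genes was 8.59 and 9.34 on these 6-week ob/ob arrays and 8.64 and 8.72 on the 16-week ones, against 9.22 and 9.38, then 9.63 and 9.47, in lean 6J islets. That of 3 alpha cell genes was 10.95 and 11.11, then 10.61 and 10.86, in ob/ob islets, against 11.04 and 11.27, then 11.38 and 11.36, in lean 6J islets. In db/db islets the delta mean was 9.36 and 9.32, then 9.00 and 9.035, against 9.60 and 9.69, then 9.21 and 9.07, in lean KsJ islets. The alpha mean was 11.00 and 11.01, then 10.75 and 10.78, in db/db islets, against 11.07 and 11.07, then 10.81 and 10.22. The part of these cells in the Stxbp5l difference was not tested. Stxbp5l was the only member whose obese arrays lay below both lean arrays in each of the 4 comparisons, a pattern held by 1.09% of all genes tested. The mean over the 4 comparisons was -1.62 ± 0.24 (adjusted p = 0.0046, limma), a ratio of 0.324, and it was -1.57 (adjusted p = 0.0059) in a fit with covariates for the acinar and enterocyte gene means (the marker covariates). The call held in each of the 16 fits without 1 array, where the change ran from -1.87 to -1.38. The single comparisons gave -1.64 ± 0.48 and -1.09 ± 0.48 in db/db islets at 6 and 16 weeks, and -1.21 ± 0.48 and -2.55 ± 0.48 in ob/ob islets, none of them called (adjusted p = 0.516, 0.188, 0.791 and 0.0632, limma). The pair had 4.26 in lean and 4.05 in db/db islets, a difference with no replicate.

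Sytl4 (granuphilin), the Rab27a effector that docks insulin granules, was also lower in obese islets. Its signal was 9.62 and 9.56 in lean KsJ islets at 6 weeks and 9.13 and 8.38 at 16 weeks, against 9.02 and 8.70, then 7.58 and 7.61, in db/db islets. Lean 6J islets had 9.41 and 9.28 at 6 weeks and 9.47 and 9.49 at 16 weeks, against 8.12 and 9.31, then 8.32 and 8.62, in ob/ob islets. The groups did not overlap in 3 of the 4 comparisons, the exception being ob/ob at 6 weeks. The mean change was -0.88 ± 0.17 (adjusted p = 0.0108, limma) and -0.84 (adjusted p = 0.0101) with the marker covariates, and all 16 fits without 1 array kept the call. In db/db islets at 16 weeks it was -1.16 ± 0.34 (adjusted p = 0.0720, limma), not called, and the pair had 7.53 in lean and 6.09 in db/db islets.

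Sytl2, another Rab27 effector, was dim, with signals from 2.81 to 4.67 around the filter of 2.99. The mean change was -0.95 ± 0.19 (adjusted p = 0.0122, limma), kept in the 16 fits without 1 array. The groups did not overlap in db/db islets at 6 weeks (3.32 and 3.38 against 4.59 and 4.67) and in ob/ob islets at 16 weeks (3.24 and 2.81 against 4.62 and 4.09). The other comparisons overlapped, and the pair went the other way, with 4.10 in lean and 4.49 in db/db islets.

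Stx1a, the plasma membrane syntaxin of insulin exocytosis, read 6.82 and 6.69 in lean KsJ islets at 6 weeks and 6.42 and 6.06 at 16 weeks, and 5.53 and 6.29, then 6.01 and 5.93, in db/db islets. In lean 6J islets it read 6.40 and 6.34 at 6 weeks and 6.70 and 6.53 at 16 weeks, and in ob/ob islets 5.71 and 6.44, then 5.99 and 5.58. Its mean change was -0.56 ± 0.14 (adjusted p = 0.0323, limma). This call was kept in 5 of the 16 fits without 1 array. The pair had 6.14 in lean and 5.84 in db/db islets.

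Bases before the gene start are shown for 3 of the members called lower (Stxbp5l, Sytl4, Stx1a), 1 called higher (Sytl1) and the Rab3 gene with the widest change in db/db islets (Rab3b), as RefSeq gives them for GRCm38.p6. Each run is 5′ to 3′ on the gene's strand and lies outside the RefSeq gene span. Capitals mark the GC box GGGCGG and the TATA box TATAAA, searched on both strands (CCGCCC and TTTATA are their reverse complements), with overlapping matches counted.
Stxbp5l: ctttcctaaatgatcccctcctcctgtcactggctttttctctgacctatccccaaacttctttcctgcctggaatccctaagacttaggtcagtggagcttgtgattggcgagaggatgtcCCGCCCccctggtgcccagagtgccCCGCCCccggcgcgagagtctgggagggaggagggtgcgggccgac
Sytl4: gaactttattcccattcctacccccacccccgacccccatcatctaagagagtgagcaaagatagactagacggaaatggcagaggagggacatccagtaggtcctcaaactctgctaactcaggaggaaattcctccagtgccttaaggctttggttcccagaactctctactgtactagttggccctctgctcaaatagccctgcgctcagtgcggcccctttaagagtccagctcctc
Stx1a: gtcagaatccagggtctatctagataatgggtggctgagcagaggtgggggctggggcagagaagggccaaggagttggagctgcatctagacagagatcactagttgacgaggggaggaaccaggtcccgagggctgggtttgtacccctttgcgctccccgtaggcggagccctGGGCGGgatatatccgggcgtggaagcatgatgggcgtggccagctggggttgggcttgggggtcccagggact
Sytl1: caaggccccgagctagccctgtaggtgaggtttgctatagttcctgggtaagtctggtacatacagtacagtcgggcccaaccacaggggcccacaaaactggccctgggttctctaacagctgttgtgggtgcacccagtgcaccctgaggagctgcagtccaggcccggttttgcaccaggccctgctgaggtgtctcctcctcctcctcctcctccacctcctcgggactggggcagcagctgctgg
Rab3b: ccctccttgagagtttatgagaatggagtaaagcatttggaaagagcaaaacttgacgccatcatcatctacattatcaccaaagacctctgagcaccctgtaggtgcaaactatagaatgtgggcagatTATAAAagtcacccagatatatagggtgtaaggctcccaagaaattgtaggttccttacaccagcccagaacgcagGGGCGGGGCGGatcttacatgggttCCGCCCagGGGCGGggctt
The runs lie at chr16:37385016-37385208 (minus strand) for Stxbp5l, chrX:133981822-133982062 (minus strand) for Sytl4, chr5:135023232-135023481 (plus strand) for Stx1a, chr4:133263088-133263337 (minus strand) for Sytl1 and chr4:108878820-108879069 (plus strand) for Rab3b. The GC box occurred 2 times for Stxbp5l, 1 time for Stx1a and 4 times for Rab3b, where a pair of matches overlaps, and it was not in these windows of Sytl4 and Sytl1. The TATA box occurred 1 time, for Rab3b. RefSeq windows of 250 bases were found for 56 of the 73 members (69 windows). The GC box was in 60.9% of these windows and in 32.7% of all 32851 windows, and the TATA box in 4.35% and 12.4%. The median GC content was 60.4% and 52.4%. These are descriptions of letters, not of bound sites.

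Syt5, Syt9 and Syt4 were the members higher in every obese array than in both lean arrays in each of the 4 comparisons, a pattern held by 3.31% of all genes tested. Syt9, a calcium sensor of insulin granules, read 7.43 and 7.21 in lean KsJ islets at 6 weeks and 6.90 and 6.04 at 16 weeks, against 7.66 and 7.74, then 7.96 and 7.86, in db/db islets. Lean 6J islets had 7.32 and 7.29, then 7.59 and 7.43, and ob/ob islets 8.10 and 7.35, then 7.97 and 7.83. The mean change was 0.66 ± 0.14 (adjusted p = 0.0164, limma), called in all 16 fits without 1 array, where it ran from 0.55 to 0.77.

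Syt5, a synaptotagmin of dense-core vesicles, read 9.32 and 9.33 in lean KsJ islets at 6 weeks and 8.57 and 6.23 at 16 weeks, against 9.59 and 10.35, then 9.88 and 9.68, in db/db islets. Lean 6J islets had 9.29 and 8.95, then 9.22 and 9.17, and ob/ob islets 10.37 and 9.52, then 9.93 and 9.76. Its mean change was 1.13 ± 0.29 (adjusted p = 0.0312, limma), but the call was kept in only 5 of the 16 fits without 1 array. Syt4, a synaptotagmin that does not bind calcium well and acts in beta cell maturation, read 9.12 on both lean KsJ arrays at 6 weeks, 8.87 and 7.34 at 16 weeks, and 9.23 and 9.33, then 9.78 and 9.40, in db/db islets. On the 6J background lean islets had 9.00 and 8.69, then 8.89 and 9.24, and ob/ob islets 9.59 and 9.22, then 9.60 and 9.68. Over the 4 comparisons it changed by 0.69 ± 0.19 (adjusted p = 0.0406, limma), kept in 3 of the 16 fits. Further Syt4 clusters, of mean signal 3.80 and 3.07, did not rise in each comparison. In db/db islets they stood at 0.20 and -0.06 at 6 weeks and at 0.76 and 0.52 at 16 weeks. In ob/ob islets they stood at 0.63 and 0.29, then at 0.0 and -0.19.

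Stxbp6 (amisyn), which binds syntaxin through a SNARE-like motif, read 6.35 and 6.28 in lean KsJ islets at 6 weeks and 6.14 and 6.40 at 16 weeks. Db/db islets had 6.86 on both arrays at 6 weeks and 7.58 and 7.15 at 16 weeks, all above the 4 lean KsJ arrays. Signals in lean 6J islets were 7.15 and 6.81, then 7.01 and 6.93, and in ob/ob islets 7.59 and 6.81, then 7.51 and 7.39. The groups overlapped at 6 weeks in ob/ob islets alone. The mean change was 0.59 ± 0.12 (adjusted p = 0.0153, limma), kept in all 16 fits without 1 array.

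Rab3d, a Rab of secretory granules that is abundant in exocrine acinar cells, read 9.07 and 9.17 in lean KsJ islets at 6 weeks and 8.91 and 9.86 at 16 weeks, against 9.68 and 10.19, then 9.87 and 9.82, in db/db islets. Among 6J islets, lean ones had 9.40 and 9.23, then 9.19 and 9.20, and ob/ob islets 10.23 and 9.75, then 10.35 and 10.08. The higher lean KsJ 16-week value was on the acinar-rich array, and that comparison alone overlapped. The mean change was 0.74 ± 0.15 (adjusted p = 0.0113, limma). A second Rab3d cluster was higher in each comparison too, by 0.40 to 1.18.

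Sytl1, a Rab27 effector, read 7.10 and 7.08 in lean KsJ islets at 6 weeks and 7.02 and 7.89 at 16 weeks, against 7.58 and 7.998, then 7.66 and 8.18, in db/db islets. Lean 6J islets had 6.97 and 6.92, then 6.75 and 6.99, and ob/ob islets 7.93 and 7.38, then 8.10 and 7.89. Its mean change was 0.75 ± 0.15 (adjusted p = 0.0116, limma), and db/db at 16 weeks again was the comparison that overlapped. The acinar mean was 8.72 and 9.06 in ob/ob islets at 16 weeks against 7.55 and 8.07 in lean 6J islets. With the marker covariates, Rab3d stood at 0.69 (adjusted p = 0.00671) and Sytl1 at 0.69 (adjusted p = 0.00627, limma). Both calls also held in the 16 fits without 1 array.

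The smaller calls were Rab3a at 0.37 ± 0.09, Stx18, a SNARE of the endoplasmic reticulum, at 0.45 ± 0.12, and Stx5a, a SNARE of the Golgi, at 0.27 ± 0.08 (adjusted p = 0.0254, 0.0390 and 0.0495, limma). These were kept in 8, 4 and 3 of the 16 fits without 1 array. With the marker covariates Stx5a was no longer called (adjusted p = 0.0560). The plot of values by array shows 8 of the called members.

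**Figure D3:**
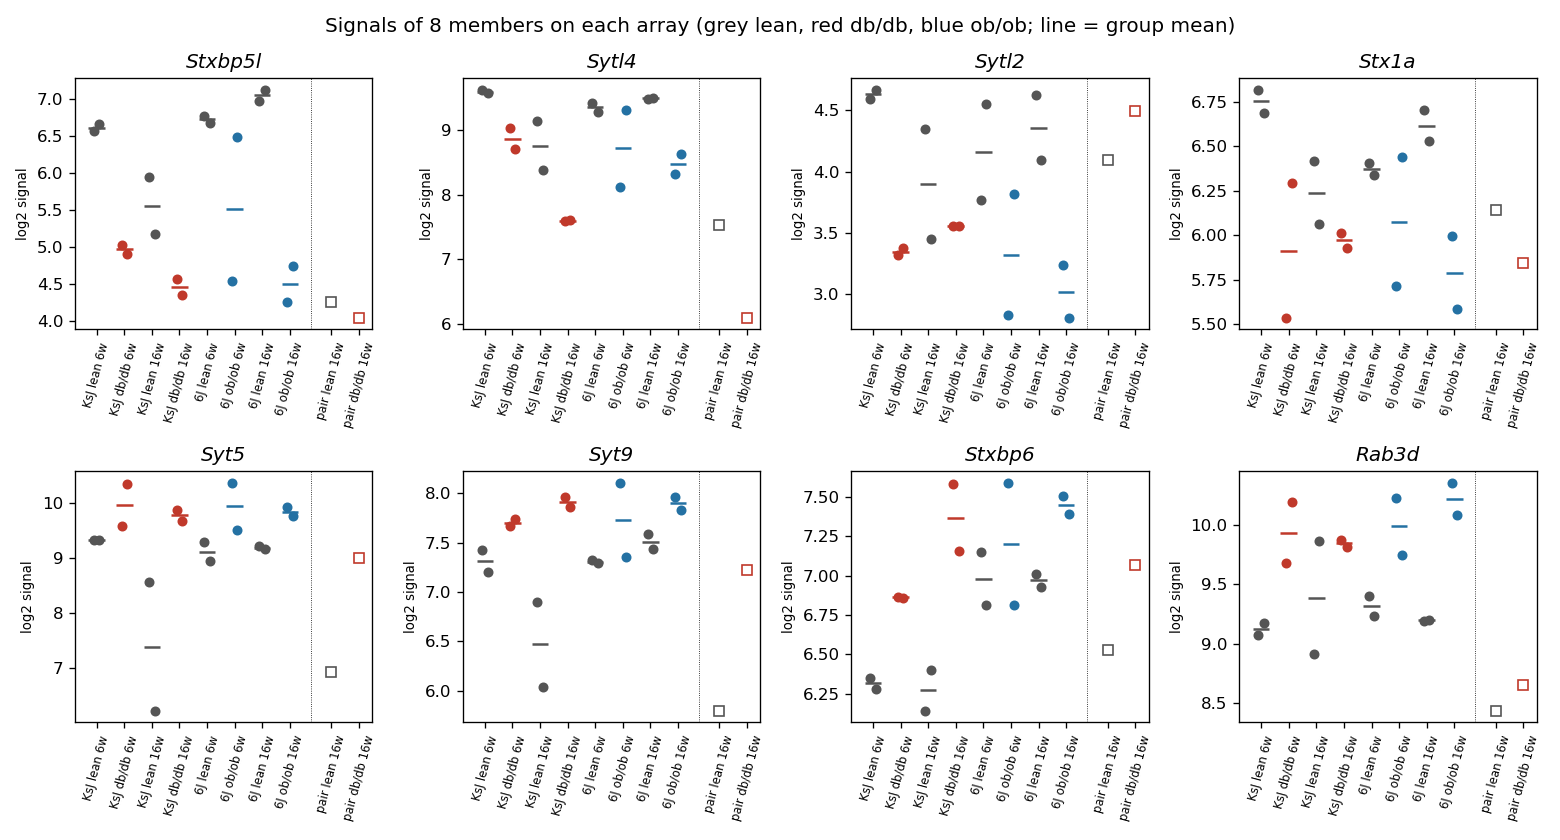
Log2 signal (vertical) of 8 members on each array, by group (horizontal): grey lean, red db/db, blue ob/ob, with a line at each group mean of 2 arrays. Open squares are the pair of the smaller table, which was kept apart because its normalization is not stated. Stxbp5l is at 4.27 to 5.04 on all obese arrays but the second ob/ob 6-week array, at 6.49, and both Syt9 db/db groups lie above their lean groups.

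Db/db islets at 16 weeks had 8 members called higher and none lower than lean KsJ islets of that age, while 5.8% of all genes tested were called, 5.32% higher and 0.477% lower. The differences of the 69 members had a median of 0.29, with 50 above 0, against a median of 0.18 over all genes, of which 65.7% lay above 0. Without the acinar-rich lean replicate 2 the members' median was 0.17, with 43 above 0, and that of all genes 0.16. The db/db arrays lay above both lean arrays for 24 members and below them for 6 (32.8% and 10.4% of all genes tested). None of the 8 calls held without lean replicate 2 or without db/db replicate 2, and most were lost without db/db replicate 1, as calls over all genes fell too. Without lean replicate 1, which leaves the acinar-rich array to stand for that group, the median of all genes was 0.22. Syt5 then stood at 3.55 and Stxbp6 at 0.97.

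Synaptotagmins held 3 of the 8 calls, with Syt5 at 2.38 ± 0.57, Syt4 at 1.49 ± 0.38 and Syt9 at 1.44 ± 0.28 (adjusted p = 0.0392, 0.0469 and 0.0230, limma). Without lean replicate 2 the same differences were 1.21, 0.72 and 1.01. In the pair they were 2.06, 1.34 and 1.42, with its lean array also acinar-rich.

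Among Rabs and effectors, Rab3b, a Rab3 of neuroendocrine vesicles, read 7.94 and 7.21 in lean and 8.76 and 9.52 in db/db islets, a change of 1.57 ± 0.30 (adjusted p = 0.0219, limma). It was 8.35 and 8.81 in db/db islets at 6 weeks against 7.97 and 8.12 in lean islets, again without overlap. It did not separate ob/ob islets, which had 8.22 and 8.47 at 6 weeks and 8.84 and 8.41 at 16 weeks, from lean 6J islets, which had 8.31 and 8.49, then 8.68 and 8.60. Without lean replicate 2 the 16-week change was 1.20, and the pair gave 6.998 in lean and 8.50 in db/db islets. Sytl5, a Rab27 effector, read 8.53 and 8.24 in lean and 9.56 and 9.29 in db/db islets at 16 weeks, a change of 1.04 ± 0.20 (adjusted p = 0.0219, limma), and 0.90 without lean replicate 2. Its signal was 9.00 and 8.57 in lean KsJ and 9.16 and 8.97 in db/db islets at 6 weeks, and from 9.05 to 9.53 on the 8 arrays of 6J and ob/ob islets.

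Stxbp6 rose by 1.10 ± 0.25 (adjusted p = 0.0320, limma), and by 1.23 without lean replicate 2. Among vesicle SNAREs, Vamp7, a SNARE of late endosomal and secretory vesicles, read 8.65 and 7.87 in lean and 9.44 and 9.05 in db/db islets, a change of 0.99 ± 0.25 (adjusted p = 0.0469, limma), and 0.60 without lean replicate 2. Vamp7 was 8.86 and 8.92 in lean KsJ and 8.78 and 9.02 in db/db islets at 6 weeks, 8.71 and 8.87, then 9.07 and 8.94, in lean 6J islets, and 8.89 and 8.47, then 9.34 and 9.50, in ob/ob islets. Of the 11 SNAREs of internal membranes, all had a difference above 0, though 10 did without lean replicate 2, under median centring or under quantile normalization. The call among them was Stx12, an endosomal syntaxin, at 6.30 and 6.13 in lean and 7.07 and 6.94 in db/db islets (0.79 ± 0.17, adjusted p = 0.0273, limma; 0.71 without lean replicate 2). Stx12 was 6.81 and 6.84 in lean KsJ and 6.50 and 6.57 in db/db islets at 6 weeks, 6.74 and 7.002, then 6.44 and 6.74, in lean 6J islets, and 6.78 and 6.72, then 6.84 and 6.67, in ob/ob islets. Its lean KsJ 16-week arrays were thus the lowest of all 16. The plot of these 8 members sets the fits side by side.

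**Figure D4:**
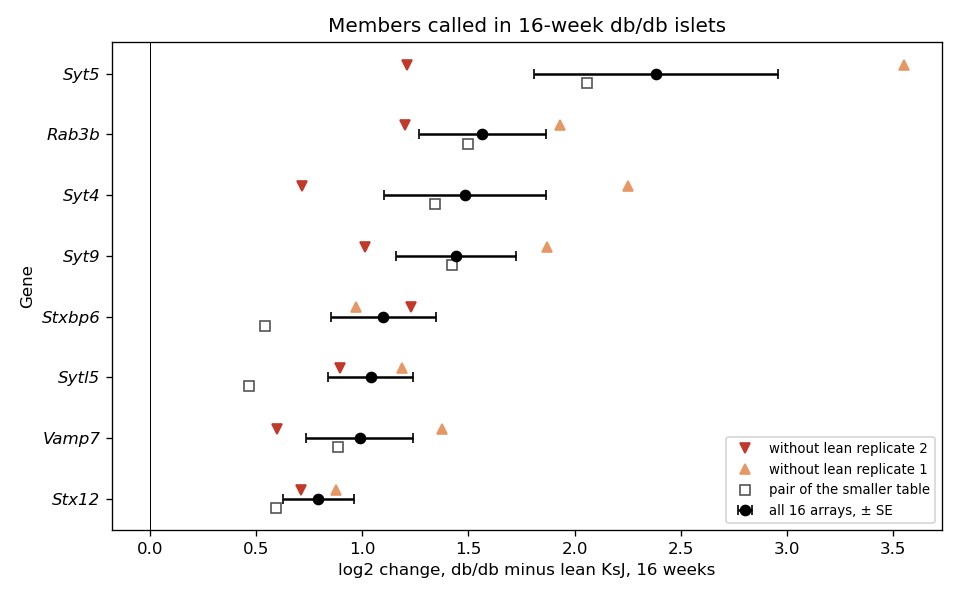
Log2 change of 16-week db/db against lean KsJ islets (horizontal) for the 8 members called (vertical): black points with SE from all 16 arrays, red and orange triangles without lean replicate 2 and without lean replicate 1, open squares from the pair of the smaller table, with no replicate. All points lie above 0. For Syt5 the change is 2.38 with all arrays, 1.21 without lean replicate 2 and 2.06 in the pair, whose lean array is also acinar-rich.

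Other role groups had no call in db/db islets at 16 weeks. In the plasma membrane group the widest difference was Stx2, a broadly expressed syntaxin, at 0.80 ± 0.28 (adjusted p = 0.117, limma), and in the priming and complexin group Cplx3, at -0.92 ± 0.30 (adjusted p = 0.0909). The clathrin adaptor Snap91 stood at 1.03 ± 0.36 (adjusted p = 0.113), and Stxbp3-ps at 0.36 ± 0.65 (adjusted p = 0.772). Without lean replicate 2, Stx2 stood at 0.34, Cplx3 at -1.20, Snap91 at 0.67 and Stxbp3-ps at 0.31. The priming and complexin group had a median of -0.22, with 6 of 10 differences below 0. That median was -0.0086 without lean replicate 2, with 5 differences each way, and -0.48 with quantile normalization. In the pair, 45 of 69 members were higher in db/db islets (56.6% of all genes tested), 6 of them by at least 1 log2 unit (5.98% of all genes) and 2 lower by that much (2.24%). The 6 were Syt5, Rab3b, Syt9, Syt4, Syt13 and Snap25, and the 2 were Sytl4 and Unc13d, a priming factor at 4.63 in lean and 3.57 in db/db islets. The pair also differed in its acinar mean (11.61 in lean, 10.38 in db/db islets) and its enterocyte mean (4.51 and 9.31).

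Ob/ob islets at 16 weeks had no member called against lean 6J islets, with 0.0708% of all genes called (limma). At an unadjusted p below 0.05 there were 5 members higher and 10 lower, 6.73% and 9.82% of all genes. The member median was -0.07 and that of all genes -0.03. After Stxbp5l, the widest differences by role were Sytl2 at -1.34 ± 0.38 (adjusted p = 0.138), Syt1, the calcium sensor of synaptic vesicles, at -1.18 ± 0.47 (0.248), Vamp1, a vesicle SNARE, at -1.15 ± 0.33 (0.143), Rims3 at -0.93 ± 0.38 (0.252), Stx1a at -0.83 ± 0.29 (0.191) and Stx18 at 0.69 ± 0.24 (0.197). Snap91 stood at -0.05 ± 0.36 (0.969) and Stxbp3-ps at -0.28 ± 0.65 (0.881), where values in brackets are adjusted p from limma. The arrays of ob/ob and lean islets did not overlap for any of Vamp1 (5.03 and 4.42 against 5.88 and 5.85), Syt1 (5.48 and 5.46 against 6.60 and 6.70) and Rims3 (7.43 and 7.51 against 8.39 and 8.41). Such gaps were common here. The ob/ob arrays lay below both lean arrays for 31 of 69 members and 5165 of the 15526 genes. They lay above both for 19 members and 4371 genes. Stxbp5l was called here without either lean KsJ 16-week array or without either 6-week ob/ob array. Leaving these out changes the shared estimate of spread but not the Stxbp5l change. Stxbp5l was not called without any other single array. Its change was -2.62 and -2.47 without lean 6J 16-week replicates 1 and 2. Without ob/ob 16-week replicates 1 and 2 it was -2.31 and -2.79. With the marker covariates it was -2.25 and not called (adjusted p = 0.108, limma). Quantile normalization and median centring also left it uncalled (adjusted p = 0.0713 and 0.0698, limma). A fit of the compared groups alone called 8 members and a fit with array weights 17, with 1293 and 2969 of the 15526 genes called. The 2 Rab3c clusters had opposite signs here too, 0.47 against -1.07.

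At 6 weeks no member was called in either model (limma). In db/db islets 3 were higher and 4 lower at an unadjusted p below 0.05 (3.9% and 4.62% of all genes, with 0.0258% called). The 4 lower were Stxbp5l, Sytl2, Stx1a and Rab3c, and the 3 higher were Rab3d, Sytl1 and Stxbp6. For Rab3c a second cluster had the opposite sign, 0.92 against -0.77, so its direction is unsettled. In ob/ob islets 3 were higher (Rab3d, Sytl1 and 1 SNARE of internal membranes, Stx5a) and 2 lower (Stxbp5l and Sytl2), with 3.17% and 2.98% of all genes at that threshold and 0% called. These genes were picked out after their values were seen. The 6-week ob/ob arrays differed from each other by a median of 0.31 over the members, and by 2.02 for Syt1 (5.31 and 7.32).

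Of the 10 core genes of insulin granule fusion, Stx1a, Sytl4 and Rab3a were called in the mean over the 4 comparisons and none in a single obese-lean comparison. Snap25 read 11.01 and 10.92, then 10.98 and 10.16, in lean KsJ islets, 11.16 and 11.23, then 11.40 and 11.29, in db/db islets, 11.19 and 11.05, then 10.95 and 11.01, in lean 6J islets, and 11.49 and 11.13, then 11.52 and 11.25, in ob/ob islets. Its mean change was 0.40 ± 0.12 (adjusted p = 0.0557, limma), not called. Vamp2 read 8.10 and 8.21, then 7.93 and 7.04, in lean KsJ islets, 8.07 and 8.13, then 7.71 and 8.10, in db/db islets, 8.01 and 8.04, then 8.32 and 8.02, in lean 6J islets, and 7.85 and 8.14, then 7.94 and 7.63, in ob/ob islets. The mean was -0.01 ± 0.13 (adjusted p = 0.969).

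Syt7, a high-affinity calcium sensor of insulin granules, lay between 8.98 and 9.46 on 15 of the 16 arrays and at 7.91 on lean KsJ 16-week replicate 2. Rab27a, the main Rab of insulin granule docking, lay between 10.41 and 10.91 on the same 15 arrays and at 9.86 on that one. Unc13a, the priming factor, read 7.83 and 6.42 in lean KsJ islets at 16 weeks and from 7.58 to 8.29 on the other 14 arrays. Rims2, its partner at release sites, read 7.47 and 6.36 there and from 7.45 to 8.11 on the other 14. Mean changes were 0.18 ± 0.15 for Syt7, 0.11 ± 0.12 for Rab27a, 0.11 ± 0.19 for Unc13a and -0.01 ± 0.14 for Rims2 (adjusted p = 0.475, 0.629, 0.765 and 0.964, limma). In each of these the low array was the acinar-rich one.

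Cplx2, the complexin of beta cells, read 9.55 and 9.53, then 8.92 and 8.75, in lean KsJ islets, 9.07 and 9.31, then 8.99 and 9.19, in db/db islets, 9.70 and 9.44, then 9.54 and 9.76, in lean 6J islets, and 9.34 and 9.46, then 9.34 and 9.21, in ob/ob islets. The mean was -0.16 ± 0.09 (adjusted p = 0.260, limma). Rab3a read 8.99 and 8.85, then 8.51 and 8.56, in lean KsJ islets and 9.16 and 9.26, then 9.07 and 9.09, in db/db islets, without overlap at either age. It read 8.65 and 8.51, then 8.69 and 8.81, in lean 6J islets and 9.06 and 8.54, then 9.23 and 9.15, in ob/ob islets.

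The difference between the models at 16 weeks, db/db minus lean KsJ less ob/ob minus lean 6J, was called for no member, with 0.0129% of all genes called (limma). At an unadjusted p below 0.05 there were 9 members above 0 and 3 below (12.9% and 2.67% of all genes). Rab3b had a difference of 1.58 ± 0.42 and Sytl5 of 1.11 ± 0.28 (adjusted p = 0.169 and 0.166, limma), both named after their values were seen. The count of members called rests on which lean KsJ 16-week array is used, and its range is given at the end. The median difference of all genes, 0.25 with all arrays, was 0.30 without replicate 1 and 0.22 without replicate 2.

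With age, no member was called in lean KsJ, lean 6J, db/db or ob/ob islets (limma), and the share of all genes called was 0%, 0%, 0.0644% and 0%. At an unadjusted p below 0.05, 22 members were lower and 2 higher in lean KsJ islets at 16 weeks (23.4% and 2.89% of all genes), with a median of -0.40 against -0.26 over all genes. Without the acinar-rich array both medians were -0.22. In lean 6J islets 0 members were lower and 1 higher at that threshold (1.73% and 1.13% of all genes). In db/db islets 1 was lower and 3 higher (4.63% and 2.98% of all genes), and in ob/ob islets 2 were lower and 1 higher (2.18% and 1.71%). Without lean KsJ 16-week replicate 1, which leaves the acinar-rich array to stand for that group, the median difference of all genes in lean KsJ islets was -0.29.

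Between the lean strains at 16 weeks, 4 members were called, all lower in KsJ islets, with 4.12% of all genes called and 3.65% lower. The 3 with the smallest p were Sytl5 at -1.12 ± 0.20, Syt11, a synaptotagmin that does not bind calcium, at -1.06 ± 0.22, and Cplx2 at -0.82 ± 0.17 (adjusted p = 0.0187, 0.0322 and 0.0328, limma). The other was Rims2. None of the 4 was called without lean KsJ replicate 2 or with the marker means as covariates. Without replicate 1 the median difference of all genes was -0.28, against -0.25 with all arrays. At 6 weeks no member was called between the strains (0.258% of all genes called), with 1 higher and 5 lower at an unadjusted p below 0.05 (3.39% and 3.26% of all genes). These lean arrays are shared with the obese-lean comparisons.

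Of 57 further genes of exocytosis outside the symbol rule, 3 were called higher and 1 lower in db/db islets at 16 weeks, 7.02% of the list against 5.8% of all genes tested. Cadps2, a priming factor of dense-core vesicles, at 0.96 ± 0.18, Syngr1, a synaptic vesicle membrane protein, at 0.83 ± 0.19, and Synpr, its relative synaptoporin, at -0.99 ± 0.24, had the smallest p (adjusted p = 0.0197, 0.0343 and 0.0413, limma). Without lean replicate 2 none of the 57 was called, and these 3 stood at 0.82, 0.87 and -1.16. In the mean over the 4 comparisons 3 were higher and 1 lower, again 7.02% of the list, against 10.9% of all genes, and without that array 7 were higher and 3 lower, 17.5% against 20.4%. Cadps2 was at 0.51 ± 0.09 and Syp (synaptophysin) at 0.60 ± 0.14, and Mlph, the Rab27 effector melanophilin, at -1.39 ± 0.31 (adjusted p = 0.00692, 0.0221 and 0.0180, limma). Of 11 further SNAREs, the mean called Bet1l and Bnip1, which act in Golgi and endoplasmic reticulum traffic, at 0.46 ± 0.12 and 0.49 ± 0.13 (adjusted p = 0.0324 and 0.0344, limma).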

How the data were processed

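Islet RNA was hybridised to 18 Affymetrix Mouse Gene ST arrays, and whether each array had an islet preparation of its own is not stated. The authors deposited log2 signals in a table of 16 arrays and a table of 2, and MAS5, RMA and Partek are listed, with no role, in the submitters' processing notes. The order of these tools and any other step is not stated in the labels. Of 41034 clusters, 23521 had 1 gene in the platform's annotation, 1814 several and 15699 none, and symbols were updated through RefSeq. Genes with a mean at or above the 30th percentile (2.99) were tested with limma 3.58.1 in R 4.3.3 (1 mean per group over 16 arrays, 8 residual degrees of freedom, eBayes, two-sided, Benjamini-Hochberg over 15526 genes), after the fit was tested on simulated data. The number of arrays, 2 a group, limits the precision. The pair was given without a test. Genes given by array were core secretion genes and members called in obese-lean comparisons; others were named as the widest change of a role group, as the called genes of smallest p, or after their values were seen, as stated. The members, lists and the mean contrast were chosen with earlier results of these data known.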

Additional observations from a re-analysis of the deposited data

How the results depend on the processing

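The 16-week db/db count of 8 members called became 0 with quantile normalization, with array weights, when only the compared groups were fitted and without both doubted lean arrays (the acinar-rich and the enterocyte-rich one, chosen after seeing the data), 1 with median centring, 15 with Xist as a covariate and 17 with both tables joined, and ran from 0 to 26 without 1 array. Median centring and quantile normalization took the median of all genes there from 0.18 to -0.02, and that of the members to 0.09 and 0.03. The 16-week ob/ob count of 0 became 1 with trend and robust eBayes, 8 in the compared groups alone, 17 with array weights and 1 without both doubted arrays, and ran from 0 to 3 without 1 array. Without 1 array the counts ran from 0 to 1 for ob/ob at 6 weeks, 0 to 34 for age in lean KsJ islets, 0 to 23 for the model difference and 0 to 36 for the lean strains at 16 weeks, and were 0 throughout for db/db at 6 weeks, the lean strains at 6 weeks and the other age comparisons. The 16-week strain count of 4 became 7 with trend and robust eBayes, 8 when the filter was set at the 50th percentile, 18 with Xist as a covariate, and 0 with quantile normalization, median centring, the compared groups alone, array weights, the marker covariates or without both doubted arrays. The mean contrast's count of 13 became 20 with the marker covariates and 21 without both doubted arrays, and ran from 7 to 23 without 1 array: 7 without either lean 6J 16-week array, ob/ob 16-week replicate 2 or either lean KsJ 6-week array, 22 and 23 without lean KsJ 16-week replicates 1 and 2. Rab3d, Stxbp5l, Stxbp6, Syt9, Sytl1, Sytl2 and Sytl4 were called in all 16 of those fits and in every other setting run for them. In the db/db comparison at 16 weeks, 17 of 69 members changed sign without lean replicate 2, none of them called. Of the members described, Cplx2 turned to -0.017 with quantile normalization. Without lean replicate 2, with or without the enterocyte-rich array, Rab27a turned to -0.080, Syt7 to -0.027 and Vamp2 to -0.022, and the highest values without 1 array were 0.75, 1.13 and 0.87. Stxbp3-ps ran from -0.24 to 0.96 without 1 array. In the ob/ob comparison at 16 weeks, Rab3b turned to 0.019 with quantile normalization, 0.029 with median centring and 0.071 with the marker covariates, and ran from -0.23 to 0.20 without 1 array. Snap91 turned there to 0.0081 with quantile normalization and 0.0012 with median centring, and ran from -0.50 to 0.41 without 1 array. Syt7 turned to 0.038 with median centring and 0.25 with the marker covariates, and ran from -0.11 to 0.087 without 1 array, and with the marker covariates Rab27a turned to 0.18 and Unc13a to 0.076. The cause was not tested.

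Xist was low and the Y-linked Uty high on both 6-week ob/ob arrays, lean 6J 6-week replicate 1 and lean KsJ replicate 1 at both ages, and the reverse on the other 11 arrays of the larger table. Both sexes were thus present in lean 6J islets at 6 weeks and lean KsJ islets at both ages, and sex and age cannot be told apart in ob/ob islets. All db/db arrays were Xist-high, against 1 Xist-low and 1 Xist-high lean KsJ array at each age. Both 6-week ob/ob arrays were Xist-low, against a lean 6J group of both sexes. Sex was thus unbalanced between obese and lean islets in these comparisons. Fits without lean KsJ 16-week replicate 2 set Xist-high db/db arrays against an Xist-low lean array alone. No paired analysis was possible because the labels number the arrays in 1 series over all groups; replicate numbers here only name arrays in accession order. With 2 arrays a group, a change that was not called cannot be read as absent.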
